A study of Rattus norvegicus with 22 samples.

Results

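Srebf2, Scap, Abca1, Scarb1 and Apoc1 encode proteins that sense cholesterol in liver cells, move it across the cell surface or travel with it on lipoproteins. They were picked by symbol from the larger of the deposited tables, the male one, where each has 1 row, so that 5 of its 1365 rows are described here. The smaller, female table holds 69 rows and none of these genes, so levels in females and any difference between the sexes were not analysed here. The study measured RNA by sequencing in the livers of Wistar rats at postnatal day 110, all offspring of mothers on an obesogenic diet (MO) or on a control diet. The males compared here were 5 MO and 6 control animals, each with 1 library. The labels name no litter or mother, and a p-value here reflects only how the sampled animals vary. The labels do not say what the offspring ate.

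Cholesterol synthesis in hepatocytes is governed by feedback. The protein made from Srebf2, SREBP2, is a membrane-bound transcription factor precursor that Scap escorts from the endoplasmic reticulum to the Golgi when membrane cholesterol is low. Proteases there release its active part, which switches on genes of cholesterol synthesis and of LDL uptake. On the other side of the balance, Abca1 loads cholesterol onto apolipoprotein A-I to form new HDL particles, and Scarb1 takes cholesteryl esters from HDL into the liver. Apoc1 is a small apolipoprotein of VLDL and HDL that slows lipoprotein clearance and lipolysis.

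The start sites of 3 of these genes are shown as background, because SREBP2 is known to act on promoters with sterol regulatory elements, its own gene included. Lower levels in MO males, found in all 5 genes on the deposited scale, do not set these 3 apart. The sequences are RefSeq promoter windows of assembly GRCr8, each with 250 bases before and 50 after a start site, and the deposited values were made on another build. Of the 5 genes 4 had a window in that table. The windows of Apoc1 were searched but are not printed. Srebf2 is at chr7:115543057-115543356 on the plus strand, Scap at chr8:119184188-119184487 on the plus strand and Abca1 at chr5:72596424-72596723 on the minus strand. Capitals mark matches, on either strand, to a sterol regulatory element core (ATCACCCC), a CCAAT box (CCAAT), an E-box (CACGTG) or a GC box (GGGCGG), all searched with these windows in view.
Srebf2: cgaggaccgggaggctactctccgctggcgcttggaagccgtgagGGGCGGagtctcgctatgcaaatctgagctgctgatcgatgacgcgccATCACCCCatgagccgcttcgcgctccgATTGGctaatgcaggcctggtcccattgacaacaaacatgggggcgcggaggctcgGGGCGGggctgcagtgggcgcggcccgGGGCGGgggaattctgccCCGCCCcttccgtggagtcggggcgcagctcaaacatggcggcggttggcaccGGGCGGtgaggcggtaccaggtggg
Scap: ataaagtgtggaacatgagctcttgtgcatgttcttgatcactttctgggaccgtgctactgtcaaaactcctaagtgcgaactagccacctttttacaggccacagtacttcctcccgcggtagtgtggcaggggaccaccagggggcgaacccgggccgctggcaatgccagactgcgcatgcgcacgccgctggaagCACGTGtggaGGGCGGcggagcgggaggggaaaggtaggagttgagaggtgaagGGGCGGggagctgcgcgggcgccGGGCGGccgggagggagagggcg
Abca1: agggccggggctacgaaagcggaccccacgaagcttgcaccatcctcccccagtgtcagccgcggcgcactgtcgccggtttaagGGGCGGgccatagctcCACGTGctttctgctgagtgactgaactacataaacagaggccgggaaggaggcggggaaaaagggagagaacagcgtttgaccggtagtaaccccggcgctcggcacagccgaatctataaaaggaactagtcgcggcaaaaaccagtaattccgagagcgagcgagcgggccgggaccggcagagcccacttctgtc

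The Srebf2 window held the sterol element core once, beginning 157 bases before the start site, a reversed CCAAT box beginning 129 bases before it, and 5 GC boxes. No match to the core was found in the windows of Scap, Abca1 or Apoc1. Over all 33469 windows of that length, 0.687% held the core, 37.5% a CCAAT box, 6.42% an E-box and 33.1% a GC box. Scap and Abca1 each had 1 E-box, beginning 50 and 149 bases before the start site. The matches describe these letters and were not tested as binding sites, and no measurement here reads a promoter.

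All 5 genes were lower in MO males than in control males, by 30.4% to 39.0% of the control mean, with log2 fold changes between -0.66 and -0.53, though Srebf2, Scap and Apoc1 turned to slightly higher when libraries were scaled to an equal sum of the listed rows (0.041, 0.092 and 0.126), as did Scap and Apoc1 after centring. The unit of level, RPM, is the read number after scaling every library to one total, and log2 fold changes are MO minus control on log2(RPM + 1). By limma with Benjamini-Hochberg adjustment over all 1365 rows, 5 of 5 passed an adjusted p of 0.05 as lower, beside 96.5% of the rows. The authors had listed only rows that differed, with unadjusted p-values up to 0.04964 and log2 sizes from 0.48 in the authors' deposited table. That choice, on the same animals, took rows of either direction, and 48 of the 1365 passed as higher. Passing the threshold therefore follows largely from the choice of rows. That choice also favours large differences. The sizes, standard errors, intervals and p-values below describe these animals and are no independent test. In whole liver, fewer cells of a type and less RNA per cell cannot be told apart.

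**Figure D1:**
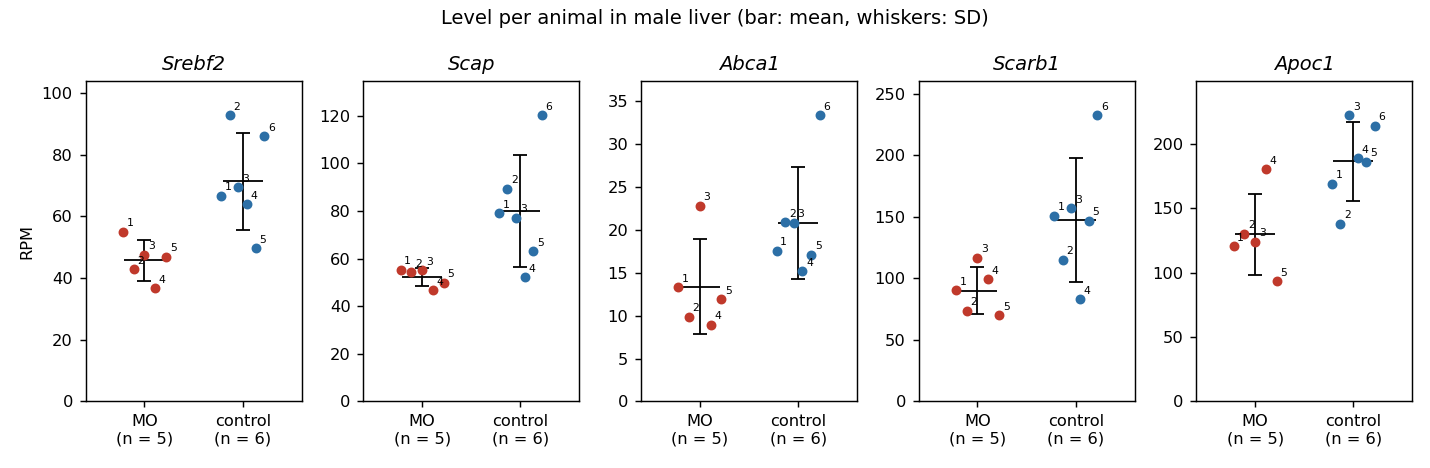
RPM of the 5 genes (vertical axes, each starting at 0) in each of 5 MO and 6 control males, numbered by replicate, with the mean as a bar and the SD as whiskers. MO means are lower in every panel, and in every panel at least 1 MO animal lies within the control range.

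Depth read from the smallest step of the values was 10530000 to 11590000 reads in MO males and 7890000 to 11170000 in control males, so 1 read was worth at most 0.127 RPM and each of the 5 genes rested on at least about 8.97 RPM per animal. The summed RPM of the listed rows, some of which repeat the values of another row, was 6.58% to 8.69% of the library total in MO males. In control males it was 9.69% to 15.3%. Rmrp, an RNA without a poly(A) tail, was at 1.71 to 3.11 RPM in MO males. Control males 1 and 5 had 1.20 and 1.52 RPM and the other 4 controls 36.9 to 51.2 RPM, so changes were also computed against each set of controls. Of 40 markers of other liver or blood cells 6 had a row (Pdgfrb, Des, Reln, Vwf, Krt19 and Epcam). All 6 passed as lower, beside 96.5% of all rows. Their summed level was 42.8 to 55.3 RPM in MO males and 69.7 to 80.9 RPM in control males, with 0 of them at 0. Single rows with every MO male below every control made up 29.9% of the listed rows. The median log2 fold change of the 6 was -0.62, that of all rows -0.58. With each library centred on the median of the listed rows, 0 of the 6 passed. Of 10 hepatocyte markers only Cps1 had a row, so albumin and the other 9 could not be used to check the tissue label. Cps1 was at 796.5 to 915.7 RPM in MO and 859.0 to 1900 RPM in control males. The part of depth, Rmrp or these cells in the results was not tested.

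Of the sensing pair, Srebf2, on chromosome 7 in the deposited table, was at 55.0, 42.8, 47.6, 36.8 and 47.0 RPM in MO males 1 to 5, and at 66.8, 92.8, 69.4, 63.9, 49.7 and 86.1 RPM in control males 1 to 6. In 4 of 5 MO males the level was below every control, while MO male 1 was above control male 5. The mean was 45.8 ± 6.69 RPM (SD, n = 5) in MO males and 71.4 ± 15.7 RPM (SD, n = 6) in control males. The log2 fold change was -0.61 ± 0.18 (SE; 95% interval -0.99 to -0.24, with limma adjusted p = 0.00802), and an exact two-sided permutation test over the 462 splits of the animals gave an unadjusted p of 0.00866. Against control males 1 and 5 alone the change was -0.33 ± 0.22 (SE, with limma adjusted p = 0.166), and against the other 4 controls it was -0.75 ± 0.21 (SE, with limma adjusted p = 0.00858).

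Scap, on chromosome 8, was at 55.3, 54.4, 55.1, 46.6 and 49.9 RPM in MO males 1 to 5, and at 79.0, 89.4, 77.2, 52.1, 63.2 and 120.2 RPM in control males 1 to 6. The MO animals lay close together, with a coefficient of variation of 7.35% against 29.4% in controls, and control male 4 lay within their range. Only 2 of 5 MO males were below every control, while 5 of 6 controls were above every MO male. The mean was 52.3 ± 3.84 RPM (SD, n = 5) in MO males and 80.2 ± 23.5 RPM (SD, n = 6) in control males, a log2 fold change of -0.56 ± 0.19 (SE; 95% interval -0.96 to -0.17; limma adjusted p = 0.011). The exact permutation p, unadjusted, was 0.0173. The change was -0.43 ± 0.20 (SE, with limma adjusted p = 0.0786) against control males 1 and 5, and -0.63 ± 0.23 (SE, with limma adjusted p = 0.0184) against the other 4. As background, SREBP2 depends on the Scap protein for its transport, and the RNA levels here say nothing of cleaved SREBP2.

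The receptor and the exporter of HDL cholesterol had wider spreads. Scarb1, on chromosome 12, was at 90.3, 73.7, 116.7, 99.1 and 70.2 RPM in MO males 1 to 5, and at 150.9, 115.0, 156.7, 82.9, 146.8 and 232.3 RPM in control males 1 to 6. Control males 2 and 4 lay inside the MO range and control male 6 far above the other controls, and 2 of 5 MO males were below every control. The mean was 90.0 ± 19.1 RPM (SD, n = 5) in MO males and 147.4 ± 50.04 RPM (SD, n = 6) in control males. Its log2 fold change was the largest of the 5 genes in size, -0.66 ± 0.22 (SE; 95% interval -1.12 to -0.21; limma adjusted p = 0.0107; unadjusted exact permutation p = 0.0303). It alone of the 5 passed the limma threshold against control males 1 and 5, at -0.74 ± 0.23 (SE, with limma adjusted p = 0.0283), as well as against the other 4 controls, at -0.62 ± 0.25 (SE, with limma adjusted p = 0.0266). Of all rows 38.9% passed in the first of these comparisons and 97.2% in the second.

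Abca1, on chromosome 5, was at 13.4, 9.88, 22.9, 8.97 and 11.9 RPM in MO males 1 to 5, and at 17.6, 20.9, 20.9, 15.2, 17.1 and 33.4 RPM in control males 1 to 6. MO male 3 stood above 5 of 6 controls, the other 4 MO males were below every control, and control male 6 stood apart at the top. The mean was 13.4 ± 5.56 RPM (SD, n = 5) in MO males and 20.8 ± 6.53 RPM (SD, n = 6) in control males, a log2 fold change of -0.63 ± 0.22 (SE; 95% interval -1.09 to -0.17; limma adjusted p = 0.0122). This gene had the highest p of the 5 by an exact permutation test, 0.0476 unadjusted, and in the authors' deposited table, 0.04044, close to the end of what was listed. Without MO male 3 the change was -0.83 ± 0.21 (SE), and without control male 6 it was -0.49 ± 0.21 (SE), both past the limma threshold (adjusted p = 0.00454 and 0.0334). Of the 1365 rows 1347 and 1352 passed in these fits. Against control males 1 and 5 it was -0.42 ± 0.28 (SE, with limma adjusted p = 0.173), and against the other 4 it was -0.73 ± 0.25 (SE, with limma adjusted p = 0.0162).

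Apoc1, on chromosome 1, was at 120.4, 130.3, 124.1, 180.1 and 93.3 RPM in MO males 1 to 5, and at 168.9, 137.8, 222.0, 188.7, 186.0 and 213.9 RPM in control males 1 to 6. MO male 4 lay inside the control range, and the other 4 MO males were below every control. The mean was 129.6 ± 31.6 RPM (SD, n = 5) in MO males and 186.2 ± 30.7 RPM (SD, n = 6) in control males. The log2 fold change, -0.53 ± 0.19 (SE; 95% interval -0.92 to -0.15; limma adjusted p = 0.0119; unadjusted exact permutation p = 0.0173), was the smallest of the 5 in size. It was -0.48 ± 0.24 (SE, with limma adjusted p = 0.0917) against control males 1 and 5, and -0.56 ± 0.23 (SE, with limma adjusted p = 0.0254) against the other 4 controls.

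None of the 5 genes had all MO males below all controls, a separation found in 29.9% of the listed rows. Srebf2, Abca1 and Apoc1 had 4 of 5 MO males below every control, and 59.7% of the rows had at least 4. In size, too, the 5 genes lay in the middle of the table. Their median log2 fold change was -0.61 and that of all rows -0.58, and 5 of 5 lay between the quartiles of all rows, -0.69 and -0.52. From the lowest, Scarb1 ranked 401, Abca1 482, Srebf2 538, Scap 769 and Apoc1 918 of the 1365 rows.

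**Figure D2:**
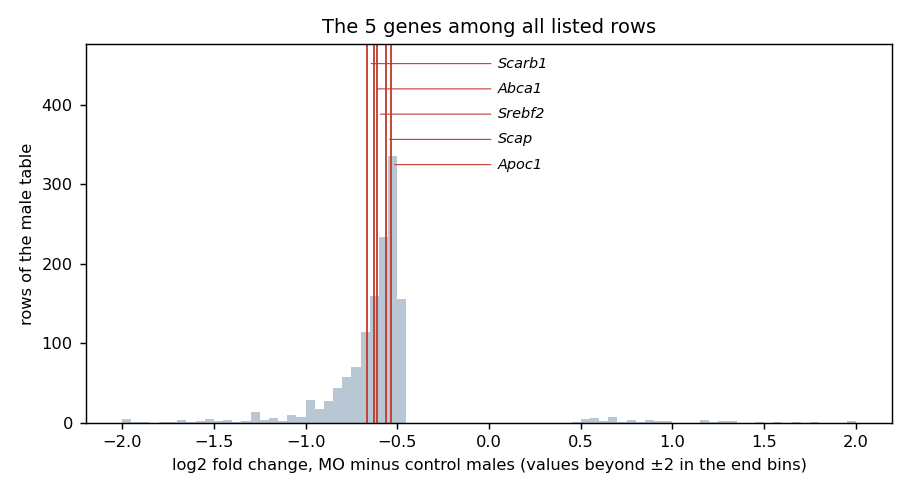
Number of listed rows (vertical axis) by log2 fold change, MO minus control males, in bins of the male table, with the 5 genes as red lines. All 5 lie in the main peak of lower rows, between -0.66 and -0.53, and the empty stretch around 0 is where rows had not been listed.

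Set against that shared shift, no gene of the 5 stood out. When each library was centred on the median of the listed rows, which moves the median change of all rows by 0.585, Srebf2 was at -0.03 ± 0.16, Scap at 0.02 ± 0.14, Scarb1 at -0.08 ± 0.14, Abca1 at -0.045 ± 0.19 and Apoc1 at 0.05 ± 0.14 (SE each, with limma adjusted p = 0.997 each). The widest of these intervals, that of Abca1, ran from -0.45 to 0.36, so a change of that size relative to the other listed rows would not be seen. After centring 24 of the 1365 rows passed as lower, 1.76%, and 0 of the 5 genes were among them, while 48 rows passed as higher. Since 1317 of the 1365 rows were lower, centring on their median takes out the change most of them share, and these files give no ground to prefer either scale.

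The changes of the 5 genes could not be told apart from one another. In all 10 pairs, the log2 ratio of the 2 genes within an animal differed between MO and control males by less than its standard error. The differences of these ratios ran from -0.13 to 0.10, with standard errors of 0.14 to 0.33. The quartiles of all listed rows were -0.69 and -0.52, so small differences between listed genes follow in part from the choice of rows. Ratios of other listed pairs were not computed. The ratio of Srebf2 to Scap, transcription factor to escort, was the most precise, with a mean log2 ratio of -0.19 in MO males and -0.14 in control males, a difference of -0.05 ± 0.14 (SE).

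Within the groups the r of the 10 pairs of genes ran from -0.42 to 0.70 on the deposited scale and from -0.67 to 0.66 after centring. These r rest on 11 animals and were not tested, nor set beside those of other listed pairs. Across the 11 males, after the mean of each group had been removed, Srebf2 and Scap went together with a Pearson r of 0.70 on the deposited scale and 0.66 after centring. Scap and Abca1 had an r of 0.69 and 0.50, and Abca1 and Scarb1 of 0.68 and 0.41. Srebf2 and Scarb1 had an r of 0.14 on the deposited scale and -0.41 after centring. Apoc1 had a negative r with each of the other 4 after centring, from -0.67 with Abca1 to -0.26 with Scarb1. On the deposited scale its r with them ran from -0.42 with Srebf2 to 0.44 with Scarb1. Each animal gives 1 point from 1 library, so the points share depth and scaling, and deviations of Scarb1 followed the library median with an r of 0.87, those of Srebf2 with 0.27. The extremes of single animals enter these r and are no separate evidence. MO male 4 was the lowest MO male in Srebf2, Scap and Abca1 and the highest in Apoc1, and control male 2 was the highest control in Srebf2 and the lowest in Apoc1.

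**Figure D3:**
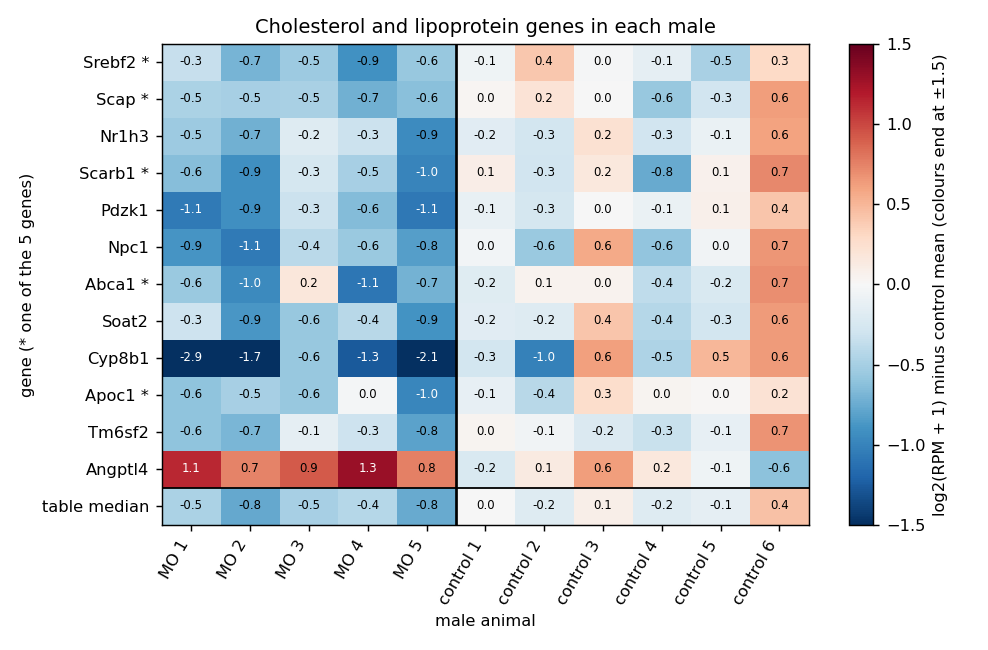
Difference of log2(RPM + 1) from the control mean in each male (columns, MO left of the line, control right of it) for 12 listed cholesterol and lipoprotein genes and for the median of all rows (bottom). Blue is lower and red higher, and the 5 genes described here carry a star. Control male 6 is red in all but Angptl4, and Srebf2 and Apoc1 differ most from each other in MO male 4 and control male 2.

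The 3 rows whose centred deviations within groups were most like those of each gene were lower in MO males, except Vps37b and Mapre2. For Srebf2 these were Vps37b (r = 0.89), the histone deacetylase Hdac11 (r = 0.88) and Bad, a promoter of cell death (r = 0.86), with Vps37b higher in MO males (0.88 ± 0.22, SE) and the other two lower. For Scap they were Mapre2 (r = 0.88), higher in MO males, and Mtm1 (r = 0.87) and Mboat7 (r = 0.83), both lower. Abca1 was followed by Rps6ka4 (r = 0.89), the tropomyosin Tpm3 (r = 0.87) and Lix1l (r = 0.86). For Scarb1 these were the phosphodiesterase Pde4b (r = 0.91), Cbx2 (r = 0.88) and Ttc7a (r = 0.85), and for Apoc1 Gemin2 (r = 0.87), Ino80e (r = 0.87) and Entpd8 (r = 0.82), each lower in MO males. Each r is the highest of comparisons with all other rows on 11 animals and is given as a description.

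The neighbouring genes of cholesterol and lipoprotein handling came from 6 lists with 84 genes, of which 12 had a row in the male table and 0 in the female one. By limma with Benjamini-Hochberg adjustment 11 of the 12 were lower and 1, Angptl4, was higher in MO males, beside 96.5% of all rows lower and 3.52% higher, so the count is near that of the table as a whole. Their median log2 fold change was -0.61, that of all rows -0.58. Without the 5 genes described above, 6 of 7 were lower and 1 was higher, with a median of -0.61. When libraries were centred or scaled to an equal sum of the listed rows, Angptl4 alone of these 7 passed. Nr1h3 and Tm6sf2 under both, and Soat2 under the equal sum, turned to slightly higher. Both scalings shift changes upward, that of Angptl4 from 0.97 to 1.55 and 1.63, so its passing follows in part from its direction. Of all rows 48 passed as higher before centring and 48 after it.

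The sensing list had rows for Srebf2 and Scap alone, 2 of 7. The Insig anchors that hold Scap back, the proteases that cut SREBP and Srebf1 had no row. None of the 19 cholesterol synthesis enzymes on the list, among them Sqle, a classical target of SREBP2, had a row in either table. A gene without a row was not analysed here, and its level is unknown.

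Around the HDL genes, 4 of 16 had a row, all lower, as were 96.5% of all rows. Pdzk1, the scaffold protein that keeps Scarb1 at the liver cell surface, was at 26.1, 28.9, 44.0, 35.0 and 25.8 RPM in MO males, against 51.0, 46.1, 54.9, 51.5, 58.4 and 73.9 RPM in control males. All 5 MO males were below every control, as in 29.9% of the listed rows. Pdzk1 was the best separated of the lower genes in these lists. Its log2 fold change was -0.80 ± 0.18 (SE, with limma adjusted p = 0.00261), and -0.22 ± 0.12 (SE, with limma adjusted p = 0.878) after centring. Nr1h3 encodes LXR alpha, the oxysterol receptor that switches on Abca1. It was at 92.5 to 156.3 RPM (median 122.4) in MO males and 146.3 to 272.8 RPM (median 162.7) in control males, with 4 of 5 MO males below every control. Its log2 fold change was -0.54 ± 0.20 (SE, with limma adjusted p = 0.0133), and 0.04 ± 0.11 (SE, with limma adjusted p = 0.997) after centring.

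Of 11 genes of lipoprotein uptake and lysosomal release, Npc1 alone had a row, and it was lower. Npc1, which releases cholesterol from lysosomes, averaged 57.2 ± 10.7 RPM (SD, n = 5) in MO males and 101.1 ± 37.8 RPM (SD, n = 6) in control males (-0.75 ± 0.22, SE, with limma adjusted p = 0.00804, and -0.16 ± 0.16, SE, with limma adjusted p = 0.997 after centring). In 3 of 5 MO males it was below every control.

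Of 11 genes of cholesterol esterification and disposal 2 had a row, both lower. Soat2 makes cholesteryl esters for storage and secretion, and averaged 38.1 ± 7.13 RPM (SD, n = 5) in MO males and 60.2 ± 19.4 RPM (SD, n = 6) in control males (-0.61 ± 0.20, SE, with limma adjusted p = 0.0109, and -0.025 ± 0.12 after centring). Cyp8b1, the sterol hydroxylase that directs bile acid synthesis to cholic acid, was at 126.3, 293.7, 630.1, 389.1 and 222.2 RPM in MO males, against 461.2 to 1448 RPM in control males. Its log2 fold change was -1.68 ± 0.33 (SE, with limma adjusted p = 0.00123), and -1.10 ± 0.35 (SE, with limma adjusted p = 0.114) after centring, so it stayed well below the other listed rows but no longer passed. Only MO male 3 overlapped the controls.

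Of the 20 genes of apolipoproteins and VLDL assembly, Apoc1, Tm6sf2 and Angptl4 had a row. Tm6sf2, which helps to load lipid onto VLDL, was at 9.02 to 14.9 RPM in MO males and 12.9 to 26.8 RPM in control males (-0.51 ± 0.19, SE, with limma adjusted p = 0.0158, and 0.08 ± 0.12 after centring), in 2 rows with the same values under a plain and a versioned accession. Angptl4, an inhibitor of lipoprotein lipase, went the other way. It was at 309.2, 237.1, 267.3, 345.5 and 237.5 RPM in MO males, against 120.0, 154.0, 218.1, 157.2, 134.1 and 91.3 RPM in control males, so that every MO male was above every control. The share of all rows with every MO male above every control is not reported here. The log2 fold change was 0.97 ± 0.20 (SE, with limma adjusted p = 0.00156), and 1.55 ± 0.23 (SE, with limma adjusted p = 0.000567) after centring. Apoe, Apob and Mttp had no row.

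**Figure D4:**
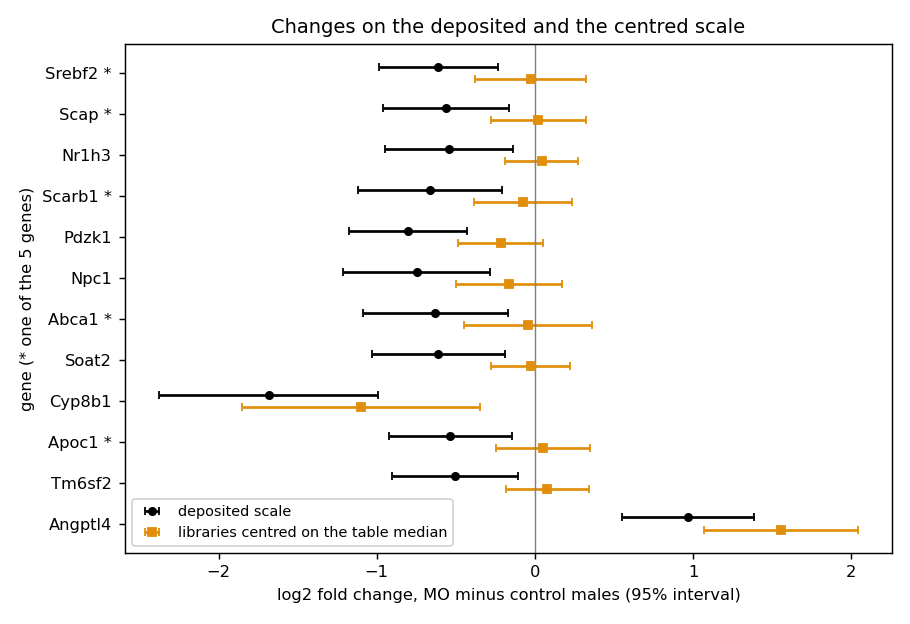
Log2 fold change, MO minus control males, with its 95% interval (horizontal axis) for 12 listed genes, on the deposited scale (black circles) and with libraries centred on the table median (orange squares). On the deposited scale 11 intervals lie below 0 and that of Angptl4 above. After centring the intervals of the 5 starred genes include 0, with Scap and Apoc1 just above 0, as are Nr1h3 and Tm6sf2.

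Against control males 1 and 5 alone, 4 of the 7 neighbouring genes passed the limma threshold (Npc1, Pdzk1, Angptl4 and Cyp8b1), beside 38.9% of all rows, while Nr1h3, Tm6sf2 and Soat2 did not. Against the other 4 controls 7 of 7 passed, beside 97.2% of all rows. Of the 5 genes described first, 1 of 5, Scarb1, passed against control males 1 and 5, and 5 of 5 against the other 4. The first comparison has fewer controls, and its rows had been selected in part on these 2 animals.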

How the data were processed

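Per the labels' protocols, liver RNA was made into Illumina TruSeq libraries. The submitters' processing notes list STAR (2.3.1j), Partek and rn5 without assigning roles. How reads were counted is not given in the sources used here. Values deposited by the authors are RPM with 1 added, which was read from the values: the minimum is 1, and in the male libraries 81.4% to 86.6% of values under 9 RPM were whole multiples of 1 step within 0.02 of a read. That share was too low to recover counts, so no count test was run. Their deposited fold column holds the size of a log2 difference, and the p-values deposited by the authors are unadjusted. Depth was 7890000 to 11590000 reads per male library.

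Male values, less 1, were fitted as log2(RPM + 1) (pseudocount 1, no filter) with limma 3.58.1 (trend, R 4.3.3) over all 1365 rows, MO minus control, with Benjamini-Hochberg adjustment. Figures used matplotlib 3.10.9. Exact permutation tests were two-sided over 462 splits. The fit was tested on simulated data with a minority of rows changed, in both directions, and no selection of rows. That setting differs from the listed rows. No libraries were identical. The 5 genes, the gene lists and the alternatives were chosen with earlier results of these data known. Named were the 5 genes, every reported gene of the 6 lists with a row, and the 3 rows most like each gene. List symbols were matched by symbol or gene ID, and 133 of 134 entries were in the GRCr8 reference. Some genes of these lists are not reported here. Alternatives were other pseudocounts, a low-value filter, 2 scalings, other tests, a replicate block and fewer animals.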

Additional observations from a re-analysis of the deposited data

Results flagged for a closer look

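In the 12 named genes of cholesterol and lipoprotein handling, 24 groups of animals were searched for a single animal far from the others, and chance flags about 1 group in 20. The search picked out control male 6 in Abca1, at 33.4 RPM, and in Tm6sf2, at 26.8 RPM, each above the other 5 controls by a wide gap. Control male 6 was the highest of the 11 males in 9 of the 12 genes and in 69.7% of all listed rows. The summed RPM of its listed rows, repeated rows included, was also the largest, at 15.3% of the library total. Without it the log2 fold changes were -0.55 for Srebf2, -0.44 for Scap, -0.52 for Scarb1, -0.49 for Abca1 and -0.49 for Apoc1, and all 5 still passed the limma threshold. So did 1352 of the 1365 rows. What sets this library apart was not tested.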

How the results depend on the processing

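Each of the 5 genes was recomputed under 21 alternatives, of which Scarb1 kept its direction and call in 19 and the others in 18 each. Pseudocounts of 0.1 and 5, a filter at 1 RPM, an unmoderated model and the exact permutation test ended no call of the 5. In that order, 1365, 1365, 1334, 1365 and 1327 rows passed, and the filter also left rows out. The unmoderated p-values of the 5 genes match those deposited by the authors. Since listed p-values ended at 0.04964, the calls of that model were fixed by the choice of rows. Leaving out 1 animal at a time gave log2 fold changes of -0.71 to -0.53 for Srebf2, -0.68 to -0.44 for Scap, -0.83 to -0.49 for Abca1, -0.81 to -0.52 for Scarb1 and -0.66 to -0.42 for Apoc1, all past the threshold, with 1282 to 1364 of 1365 rows called. Centring on the table median ended the calls of Srebf2 (-0.027), Abca1 (-0.045) and Scarb1 (-0.078) and turned Scap (0.022), Apoc1 (0.051), Nr1h3 (0.042) and Tm6sf2 (0.079). It left 72 rows, and 0 genes past the threshold in the sensing, uptake, HDL and disposal lists and 1 in the apolipoprotein list. Scaling to an equal sum of the listed rows turned Srebf2 (0.041), Scap (0.092), Apoc1 (0.126), Nr1h3 (0.118), Tm6sf2 (0.114) and Soat2 (0.041), ended the calls of Abca1 (-0.004) and Scarb1 (-0.004), and left 67 rows. Both scalings by construction take out a change shared by most listed rows. Against control males 1 and 5 alone, Srebf2 (-0.335), Scap (-0.432), Abca1 (-0.423) and Apoc1 (-0.481) no longer passed, and 531 rows did, with 4 fewer animals. Scaling values for the 7 neighbouring genes, and their values against each set of controls, were added after the data had been seen.

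Same-numbered MO and control males did not deviate together (r from -0.10 to 0.15 over 5 pairs). These r come from rows selected for a group difference and cannot settle whether the numbers pair the animals. With the replicate number as a block, which drops control male 6, 1343 rows passed, and the changes were -0.55 for Srebf2, -0.44 for Scap, -0.49 for Abca1, -0.52 for Scarb1 and -0.49 for Apoc1, all past the threshold. The selection of rows before deposit limits every count here.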
